A study of Mus musculus with 12 samples.

Results

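A set of 10 genes of the contractile apparatus was followed: Tnnt2, Tnnc1, Tnni1 and Tnni3 (troponin subunits), Actc1 and Tpm1 (the actin and tropomyosin of the thin filament), Ttn (titin), and Ldb3, Csrp3 and Smpx (proteins of the Z-disc and its surroundings). They were taken by name, with earlier results of these data known. Every interval of H3K27 acetylation (H3K27ac) and every listed GLI1 site in the mm10 gene body and 50 kb on each side was counted. The windows held 137 of the 94481 H3K27ac regions of the genome and 3 of the 2605 GLI1 sites. The cells were cardiac progenitors differentiated from mouse embryonic stem cells, of the line GLI1-FTA with the strain label A2Lox.cre, and were collected at day 6. GLI1 overexpressing cells (GLI1 OE, called dox here) had received doxycycline at 500 ng/ml for 24 h from day 5. Control cells were of the same line and untreated, so any effect of the drug itself cannot be told apart from that of GLI1. Each of 6 groups (GLI1 pulldown, H3K27ac immunoprecipitation and input, dox and control) had 2 samples, and whether the line is a single clone was not given in the sources used here. The lists analysed were H3K27ac from dox cells, H3K27ac from control cells and GLI1 from dox cells. By its deposited name, the GLI1 list keeps only replicated sites with a Gli motif. Any other GLI1 binding is not counted here. Neither a GLI1 list of control cells nor the input libraries were analysed here.

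In striated muscle, thin filaments of actin and tropomyosin carry the troponin complex, in which troponin C binds calcium, troponin I inhibits and troponin T anchors the complex to tropomyosin. Titin spans the sarcomere from the Z-disc, where thin filaments are anchored. H3K27ac marks active promoters and enhancers, and GLI1 is a DNA-binding activator of the Hedgehog pathway, which acts in progenitors of the heart before they differentiate.

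The sequences before the starts of the 9 genes that had an H3K27ac region there are shown because the main result of the comparison lies at these promoters. Each line gives 150 bases on the strand of the gene, 5′ to 3′, ending just before the upstream annotated start (RefSeq, GRCm38.p6, the same coordinates as mm10). Capitals mark matches to a CArG box (the motif of serum response factor), to the MCAT element CATTCC (the motif of TEAD factors) or to the GATA motif AGATAA, searched on both strands, so that GGAATG is the MCAT element read on the other strand.
Tnnt2, chr1:135836184-135836333, plus strand: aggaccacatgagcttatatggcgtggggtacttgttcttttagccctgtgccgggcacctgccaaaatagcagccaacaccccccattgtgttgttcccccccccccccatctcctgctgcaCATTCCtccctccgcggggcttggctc
Tnnc1, chr14:31208162-31208311, plus strand: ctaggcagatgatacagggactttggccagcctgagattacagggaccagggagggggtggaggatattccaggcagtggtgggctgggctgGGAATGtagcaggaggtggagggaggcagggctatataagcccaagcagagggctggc
Tnni1, chr1:135799271-135799420, plus strand: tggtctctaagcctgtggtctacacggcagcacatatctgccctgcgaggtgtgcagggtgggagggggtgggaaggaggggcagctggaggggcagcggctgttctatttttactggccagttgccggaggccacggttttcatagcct
Actc1, chr2:114052876-114053025, minus strand: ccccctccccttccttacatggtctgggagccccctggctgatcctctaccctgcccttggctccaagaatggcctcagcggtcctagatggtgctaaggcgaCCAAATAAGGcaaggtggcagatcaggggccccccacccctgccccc
Tpm1, chr9:67049214-67049363, minus strand: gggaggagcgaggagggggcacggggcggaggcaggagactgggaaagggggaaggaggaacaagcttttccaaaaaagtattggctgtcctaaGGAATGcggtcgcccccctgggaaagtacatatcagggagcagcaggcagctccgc
Ttn, chr2:76982548-76982697, minus strand: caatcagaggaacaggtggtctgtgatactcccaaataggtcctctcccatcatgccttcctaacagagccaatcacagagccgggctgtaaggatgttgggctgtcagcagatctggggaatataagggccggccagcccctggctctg
Ldb3, chr14:34588682-34588831, minus strand: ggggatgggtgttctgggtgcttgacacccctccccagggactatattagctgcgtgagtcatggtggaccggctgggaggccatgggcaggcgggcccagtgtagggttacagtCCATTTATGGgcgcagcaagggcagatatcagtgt
Csrp3, chr7:48848052-48848201, minus strand: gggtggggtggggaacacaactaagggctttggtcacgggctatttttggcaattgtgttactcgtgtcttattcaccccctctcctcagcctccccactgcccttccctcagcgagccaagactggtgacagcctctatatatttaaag
Smpx, chrX:157698823-157698972, plus strand: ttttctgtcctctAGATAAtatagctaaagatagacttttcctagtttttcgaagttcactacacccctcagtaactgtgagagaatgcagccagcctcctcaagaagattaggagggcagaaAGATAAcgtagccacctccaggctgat
CArG boxes were found in Actc1, 47 to 38 bp before the start, and in Ldb3, 35 to 26 bp before it, while 0.889% of all 21262 promoters in the table held one in the same 150 bases. The MCAT element lay before Tnnt2, Tnnc1 and Tpm1, against 6.85% of all promoters. Smpx held 2 copies of AGATAA, which 4.82% of all promoters held. No promoter of the 10 genes held the GLI core CCACCCA (5.39% of all) or its longer form GACCACCCA, which contains the core (0.0847%). None held the MEF2 element (1.47%) or the exact TATA box TATAAA (7.26%). These matches describe letters in a window and are not binding measurements.

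Dox and control intervals with an overlap of 1 bp or more were joined to give regions, which were then present in both lists (shared), in dox alone or in control alone. The value of a region is the authors' fold enrichment at its highest summit, a ratio of the read pileup to the local background in the pooled replicates. The log2 ratio of dox over control was centred so that the median over all shared regions is 0, and a centred log2 ratio of 1 in size (2-fold) was the threshold for lower or higher. Each list pools 2 samples, so there is no spread between replicates and no test, and every statement below compares 1 pool with another. Pools of cells were measured, so fewer cells with an acetylated gene and less acetylation per cell cannot be told apart. Being absent from a list means falling below its threshold: at the uniform background, the lowest fold enrichment listed was 2.59 in dox and 2.61 in control. The uniform background recovered from the dox list was 1.28 times that of the control list, which was taken as the depth ratio, since reads per library are unknown. As a check of the labelled cell type, 6 of 9 cardiac progenitor genes had a region at the start in both lists, with fold enrichments of 4.32 to 21.0 in dox and 14.3 to 26.7 in control. The other 3, Nkx2-5, Gata4 and Tbx5, had none within 1 kb in either list. Of 7 skeletal muscle genes, 6 had no region at the start in either list. For 4 of the 9 cardiac progenitor genes, Gata4 and Tbx5 among them, and 3 of the 7 skeletal muscle genes, no annotated start was available. Both outer gene ends were read for these instead. Among all genes with an annotated start, 49.2% had a region there in both lists and 46.7% in neither. These counts thus describe the lists and do not establish the cell type.

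At the gene starts, acetylation was lower in the dox list for most of the 10 genes. Within 1 kb of the start, 5 genes had a region in both lists, 4 in control alone (Actc1, Ttn, Csrp3 and Smpx), 0 in dox alone and 1 in neither (Tnni3). Among all 16379 genes with an annotated start that could be read in both lists, 2.23% had a region at the start in dox alone and 1.93% in control alone, beside the 49.2% in both and 46.7% in neither given above. Of the 5 genes with a region in both, Tnnt2 and Ldb3 were past the threshold on the lower side and none was on the higher side, against 1.71% lower and 3.27% higher of all 8052 such genes. Counted together, 6 of the 10 genes were lower at the start or in control alone, against 2.77% of all genes, and 0 were higher or in dox alone, against 3.83%. The median centred log2 ratio was −0.40 over these 5 genes and 0.15 over all genes with a region in both. The region within 1 kb of Tnnc1 with the highest value overlapped Nisch. When the region over or nearest to each start was used instead, a choice made after the values had been seen, 7 genes were in this count. A share over all genes is given for the first choice only, so these 7 have no like background.

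**Figure D1:**
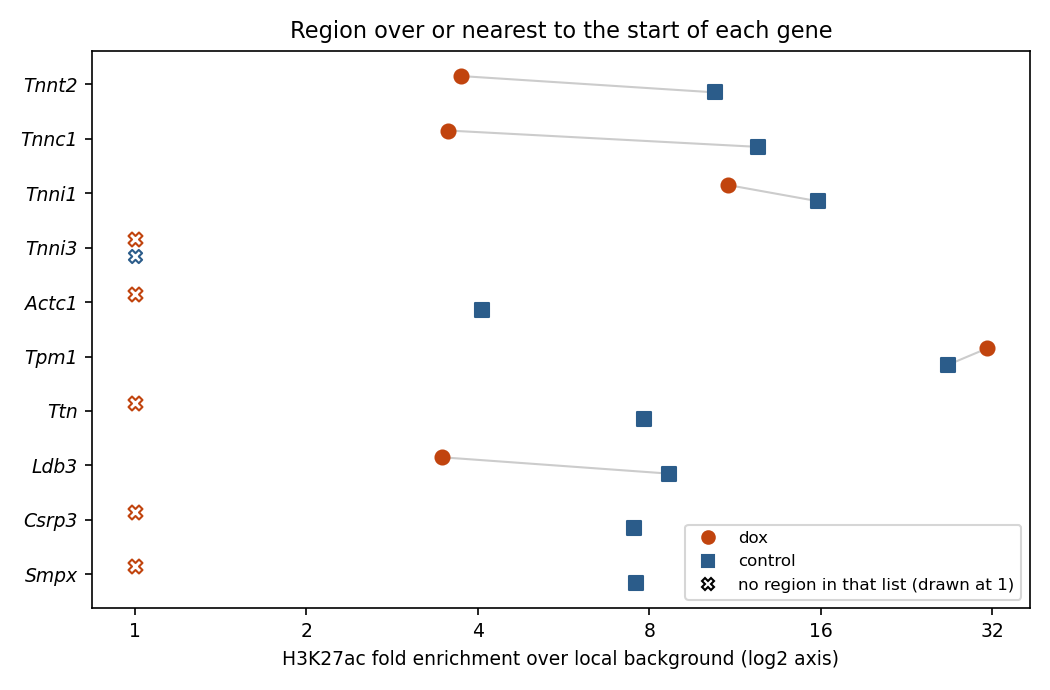
H3K27ac fold enrichment (log2 axis) of the region over or nearest to the start of each gene, within 1 kb, in the dox pool (circles) and the control pool (squares), 1 value per pool without error bars; a cross at 1 stands for no region in that list. Only Tpm1 has a higher value in dox than in control, read at different summits of its broad region. Actc1, Ttn, Csrp3 and Smpx have a value in control alone and Tnni3 in neither.

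Among the troponin genes, Tnnt2 encodes cardiac troponin T. The region over its start, chr1:135834492-135837907, had a fold enrichment of 3.74 in dox against 10.4 in control. The centred log2 ratio was −1.35, and the list covered 611 bp of the region in dox and 3416 bp in control. The summit pileups were 18 reads in dox and 39 in control, a log2 ratio of −1.47 after division by the depth ratio (95% exact interval −2.37 to −0.63), beside a median of −0.27 over all shared regions. Such intervals cover counting error only. Pileup log2 ratios given here and below with an interval are not centred and are to be read beside this −0.27. Averaging over all summits of the region in place of the highest gave −0.56 for Tnnt2, within the threshold. A further shared region inside the gene, chr1:135843498-135845723, stood at 3.001 in dox and 9.92 in control, a centred log2 ratio of −1.59. Between these, 2 regions in control alone had fold enrichments of 3.54 and 6.53, and no region in dox alone lay in the gene, so every region in the Tnnt2 gene body was lower in dox or missing from the dox list.

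Tnnc1 encodes troponin C of cardiac and slow muscle. The region over its start, chr14:31207684-31210889, had a fold enrichment of 3.54 in dox against 12.4 in control, a centred log2 ratio of −1.67. The pileups were 17 reads in dox and 54 in control, a log2 ratio of −2.03 (−2.91 to −1.22). The next region, chr14:31211263-31214924, over the end of the gene, stood at 3.80 in dox and 7.96 in control, with a ratio of −0.93 that stayed within the threshold. A separate region that overlaps Nisch and reaches past it, 679 bp upstream of the Tnnc1 start, had nearly equal values. These were 23.7 in dox and 24.5 in control, a centred log2 ratio of 0.08. The pair of adjacent regions thus differed: the one over Tnnc1 was lower in dox and the one overlapping Nisch was not. The strongest region of the window in either list lay 41.9 kb away over Bap1 and Phf7, at 28.2 in dox and 26.0 in control. All 5 regions in dox alone in the window, up to 5.40, lay in or nearest to other genes.

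Tnni1 encodes the troponin I of slow skeletal and embryonic cardiac muscle. The region over its start, chr1:135799496-135801860, stood at 11.0 in dox and 15.8 in control, a centred log2 ratio of −0.40. The pileup log2 ratio was −0.81 (−1.26 to −0.36), which became −0.54 when centred. A smaller region 117 bp from the start had 3.95 in dox and 7.42 in control, a ratio of −0.78. In the other direction, the region chr1:135793254-135795694 inside the annotated gene, 3.73 kb upstream of these starts, had 13.8 in dox and 9.91 in control, a ratio of 0.61. None of these 3 was past the threshold, and the gene carried values on either side of 0. The strongest region of the window lay over Phlda3, with 42.4 in dox and 44.6 in control (centred log2 ratio 0.06). The only region of the window past the threshold on the higher side, chr1:135763546-135765159, was also nearest to Phlda3, at 9.43 in dox and 3.73 in control (1.47). Tnni1 and Tnnt2 are neighbours and their windows overlap, and shared regions are counted once in the totals.

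Tnni3, the troponin I of the mature heart, had no region at its start and none inside the gene in either list. Its window held 3 regions, all nearer to other genes. That in Ppp1r12c had 17.1 in dox and 15.4 in control (centred log2 ratio 0.28) and that in Eps8l1 had 15.5 in dox and 13.9 in control (0.29). A control-alone region in Tnnt1 had 3.66. For Tnni3 itself there was thus nothing to compare at this threshold.

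Actc1 encodes cardiac alpha actin. Its whole window held 4 regions, all in control alone, and not a single dox interval. The regions beside the start had fold enrichments of 4.06 (197 bp upstream), 4.11 (331 bp inside the gene) and 2.87 (922 bp upstream). The strongest, chr2:114057147-114058280, lay 4.27 kb upstream with a fold enrichment of 9.14, the highest of all 54 control-alone regions in the 10 windows.

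Ttn encodes titin. Its start lay in a control-alone region, chr2:76981931-76983924, with a fold enrichment of 7.83 over 1994 bp. Beside it were 3 more control-alone regions with 5.22, 3.90 and 2.80, and no dox interval lay at the start or in the flank upstream of it. A single shared region lay in the gene, chr2:76805314-76807747, 175 kb downstream of the start, and held the dox interval nearest to it, with 3.15 in dox against 9.59 in control, a centred log2 ratio of −1.47. The strongest region of the window, in Plekha3, had 9.53 in dox and 12.8 in control (−0.29), and the one in Fkbp7 had 6.40 in dox and 4.86 in control (0.53). A further region in Fkbp7 was in dox alone, with 2.63. The regions within Ttn were thus lower in dox or missing from the dox list, and of the 3 in its neighbours the 2 shared ones stayed within the threshold.

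Of the Z-disc genes, Ldb3 encodes a PDZ-LIM protein (also called ZASP or Cypher) that binds alpha-actinin. The region over its starts, chr14:34587701-34589258, had a fold enrichment of 3.46 in dox against 8.65 in control, a centred log2 ratio of −1.19. The pileups were 15 reads in dox and 50 in control, a log2 ratio of −2.10 (−3.03 to −1.24). A cluster of 4 control-alone regions with 2.97 to 5.33 followed within 3.08 kb downstream. Upstream, inside Opn4, the region chr14:34591364-34592879 had 2.65 in dox and 7.98 in control (−1.46). Deeper in the gene the picture was mixed. Between 22.2 and 47.5 kb from the start, 7 regions in dox alone had 3.24 to 5.40, and a region in control alone had 3.39. Outside that stretch, further control-alone regions deep in the gene had 3.20 to 3.92. The strongest shared region of the gene, chr14:34548253-34549604, had 19.0 in dox and 25.9 in control (−0.31). Ldb3 was therefore the only gene of the 10 besides Tnni1 and Tpm1 with dox-alone regions in its body. The strongest region of the window lay over Bmpr1a, at 38.5 in dox and 34.2 in control (0.30).

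Csrp3 encodes muscle LIM protein. Its upstream start lay in a control-alone region, chr7:48847545-48849590, with a fold enrichment of 7.51, next to another with 5.22. The lowest ratio of any shared region in the 10 windows was at the other end of this gene: chr7:48829903-48831530 had 3.02 in dox against 11.0 in control, a centred log2 ratio of −1.73. The strongest region inside the gene, chr7:48839843-48841387, had 7.99 in dox and 11.7 in control (−0.42), within the threshold. Weaker shared regions inside the gene went either way. Those beginning at chr7:48838825 and chr7:48845451 had 4.32 and 2.81 in dox against 3.71 and 2.72 in control. That beginning at chr7:48831922 had 4.32 in dox against 5.22 in control. The window held no region in dox alone. Its strongest region, over E2f8, had 30.9 in dox and 35.9 in control (−0.08).

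Smpx encodes a small protein of striated muscle found near the sarcolemma and Z-disc. Its window held 2 regions, both in control alone, 4.18 at 222 bp upstream of the start and 7.57 at 214 bp inside the gene (chrX:157699187-157699607), and no dox interval. The control values at the starts of Ttn, Csrp3 and Smpx, 7.51 to 7.83, were above the median of 4.18 over all genes with a region at the start in control alone, and that of Actc1, 4.11, was near it.

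**Figure D2:**
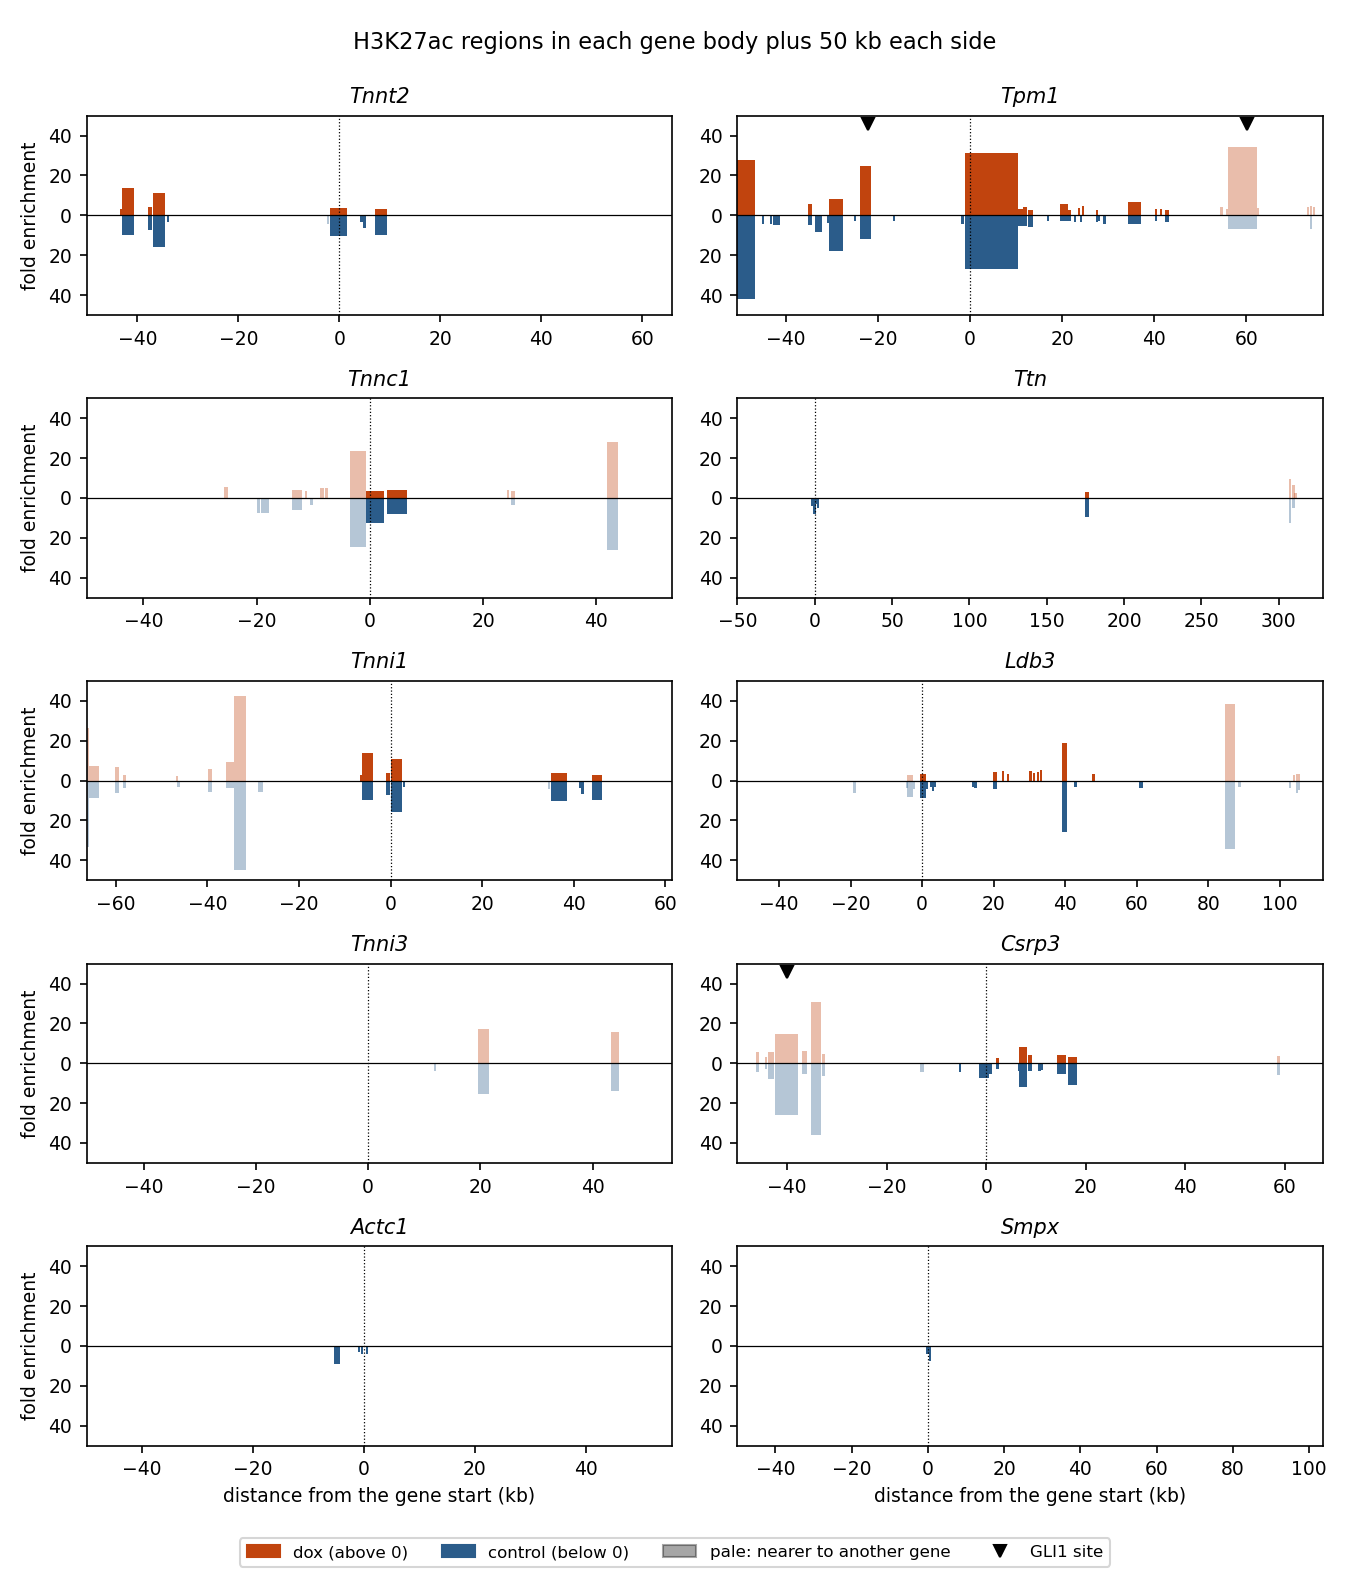
H3K27ac regions in each of the 10 windows, drawn at their distance in kb from the upstream annotated start (dotted line), with fold enrichment in dox upward and in control downward; pale bars are nearer to another gene and triangles are GLI1 sites. Bars at the starts of Actc1, Ttn, Csrp3 and Smpx point downward only, while the tall pale bars of neighbouring genes have similar heights in both directions except the pale bars that hold a GLI1 site, by Tpm1 and Csrp3.

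Tpm1, which encodes alpha tropomyosin, differed from the other genes. The region over its start was broad, chr9:67038840-67050235, 11.4 kb in all, with a fold enrichment of 31.3 in dox and 26.8 in control. The centred log2 ratio was 0.36, and it became −0.27 when all summits were averaged. The pileups were 144 reads in dox and 119 in control, a log2 ratio of −0.08 (−0.44 to 0.28), which became 0.18 when centred. The direction of the centred fold enrichment ratio thus depended on which summits were read, and the start was not past the threshold either way.

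The Tpm1 window held 37 regions, more than any other, of which 16 were shared, 8 in dox alone and 13 in control alone. It held 3 of the 4 shared regions past the threshold on the higher side in all windows. The first, chr9:66986981-66993280, 55.9 kb downstream of the start and nearest to Lactb, had 34.2 in dox against 7.05 in control, a centred log2 ratio of 2.41, the highest in the 10 windows. Its pileup log2 ratio was 2.31 (1.70 to 2.96). The second, chr9:67070558-67073108, 21.3 kb upstream, had 24.6 in dox against 11.7 in control (1.21). The third, chr9:67027957-67029710 inside the gene, had 5.51 in dox against 2.72 in control (1.15), and its pileup interval included 0, at 0.23 (−0.69 to 1.17). The first and the second each held a GLI1 site.

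Further upstream of Tpm1 most values lay the other way. The region chr9:67076676-67079749 had 8.02 in dox and 17.8 in control (−1.01), just past the threshold on the lower side. The region chr9:67081248-67082760 was in control alone with 8.62. An exception was the shared region chr9:67083358-67084342, 34.1 kb upstream, with 5.62 in dox and 4.70 in control (0.39). A 22.6 kb domain that begins 46.5 kb upstream and runs past the window, chr9:67095758-67118366, had 27.7 in dox and 42.0 in control (−0.47). These values came from different summits, both past the edge of the window. The highest summits of the domain inside the window had 14.9 in dox and 32.4 in control. The domain was covered by 13 dox intervals over 17302 bp and by 2 control intervals over 22469 bp. The region that held the upstream GLI1 site and was higher in dox, 21.3 kb upstream of the start, and the lower one, 27.5 kb upstream, were separated by a small control-alone region with 3.07.

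**Figure D3:**
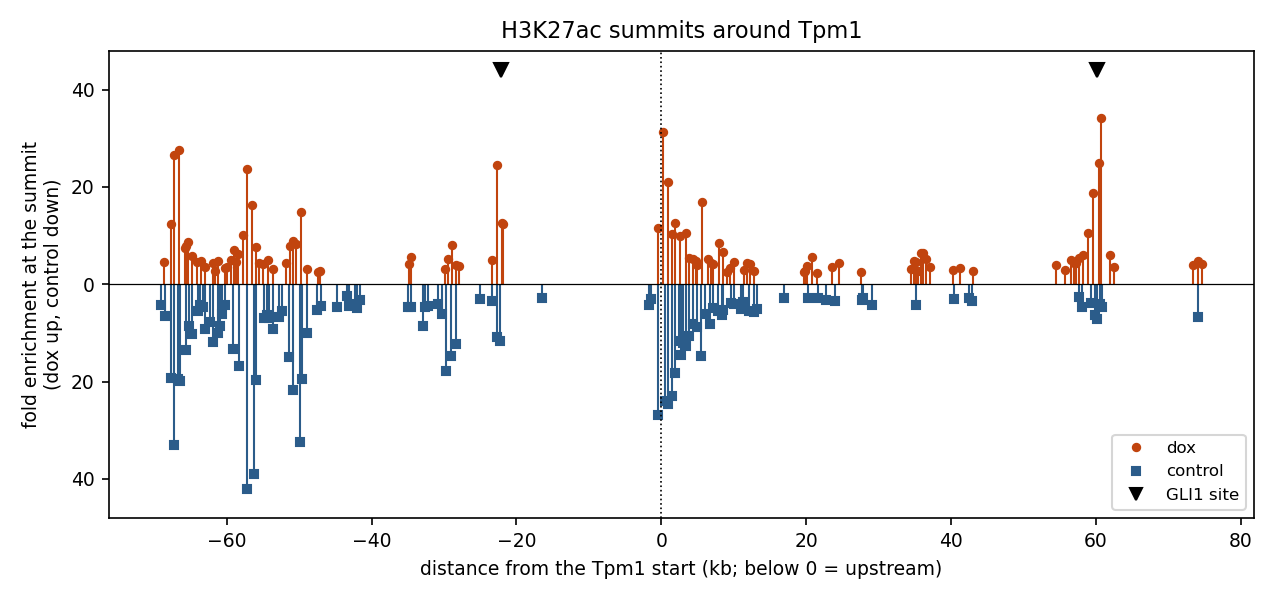
Fold enrichment at every H3K27ac summit around Tpm1 against the distance from its start in kb (negative is upstream), with dox upward, control downward and GLI1 sites as triangles. The dox summits beside the GLI1 sites reach 24.6 upstream and 34.2 downstream where control summits reach 11.7 and 7.05. In the upstream domain control summits reach 42.0 and dox summits 27.7, at different places past the edge of the window.

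The windows held 3 GLI1 sites from dox cells. Of the 10 genes, Tpm1 (2 sites) and Csrp3 (1 site) had any in the gene body or 50 kb on each side, while 13.1% of all genes had one there, and 3 of the 137 regions held one, against 1.86% of all regions. Counts this small and near the background are no result about these genes. The site at chr9:66989054-66989154, 60.1 kb downstream of the Tpm1 start, had a deposited −log10 q of 150 and ranked 168 of 2605. The flanking dox summits were 315 bp away with 24.9 and 587 bp away with 18.7. The flanking control summits, 78 and 324 bp away, had 7.05 and 6.25. The nearest gene was Lactb, at 13570 bp.

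The site at chr9:67071365-67071465, 22.2 kb upstream of the Tpm1 start, had a −log10 q of 44.1 and ranked 901. Dox summits stood 134 and 435 bp away with 12.6 and 24.6, and the nearest control summit stood 135 bp away with 11.7. The site in the Csrp3 window, chr7:48887996-48888096, had a −log10 q of 27.7, ranked 1428, lay 39995 bp from the Csrp3 start and was nearest to E2f8, at 5923 bp. Its region had 14.5 in dox and 26.0 in control, a centred log2 ratio of −0.71. Over the genome, 14.2% of 783 shared regions with a GLI1 site had a ratio below 0. All 3 sites lay in an interval of the dox and of the control list. For the other 8 genes the nearest listed site was 201254 bp (Tnnc1) to 3880700 bp (Smpx) from the start. Since the list was limited to replicated sites with a Gli motif, absence from it does not show absence of GLI1.

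Over all windows together, 24 of the 137 regions were in dox alone, 59 in both and 54 in control alone. These are 17.5% in dox alone (95% exact binomial interval 11.6 to 24.9%) and 39.4% in control alone (31.2 to 48.1%), against 35.5% and 27.1% of all regions, and 43.1% in both against 37.5%. The intervals cover counting error only, and regions of 1 window are neighbours and not independent. Of the 59 shared regions, 4 were past the threshold on the higher side and 8 on the lower side, 6.78% and 13.6%, against 6.78% and 8.31% of all shared regions. The median ratio was −0.14. Counted over their whole length, including what runs past a window's edge as in the Tpm1 domain, these regions held 111 kb of dox intervals and 143 kb of control intervals, whereas over the genome the dox list covered more, 66041 kb against 59875 kb in the control list. No dox-alone region was above 5.40, and control-alone regions reached 9.14.

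**Figure D4:**
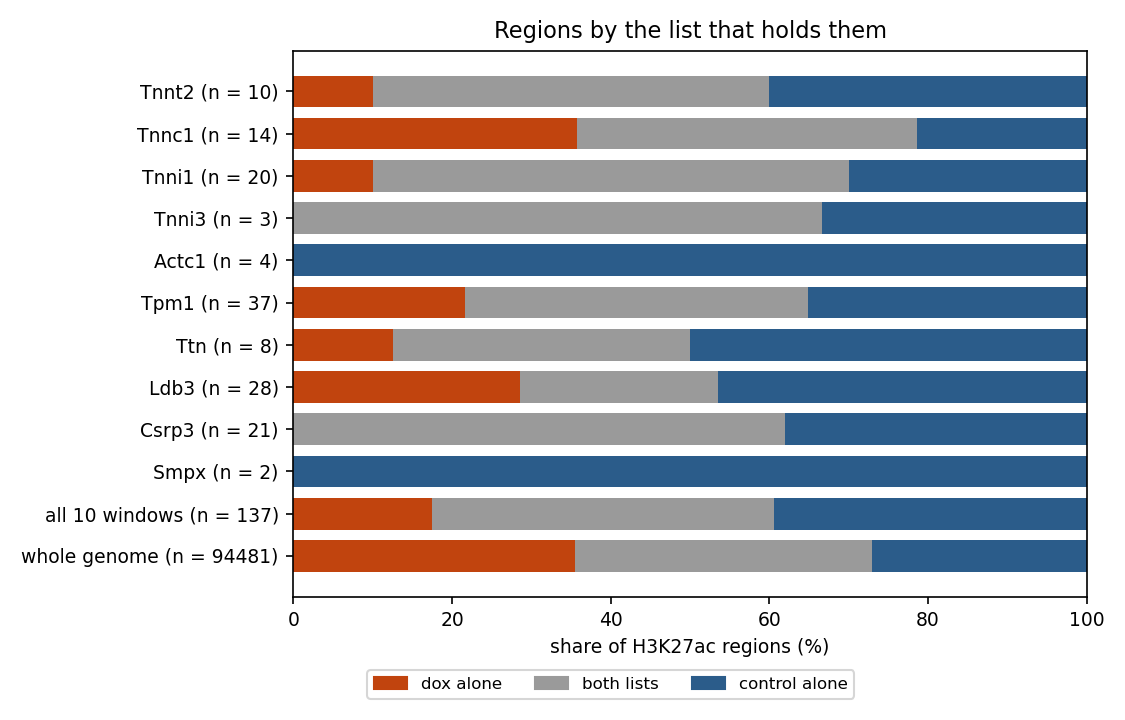
Share of H3K27ac regions (%) found in the dox list alone, in both lists and in the control list alone, for each window, for all 10 windows and for the genome, with the number of regions beside each name. The control-alone share is 39.4% over all windows and 27.1% over the genome, and the windows of Actc1 and Smpx hold control-alone regions only.

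The balance depended on which gene a region was nearest to, a split added after the values had been seen. Of the 81 regions inside or nearest to 1 of the 10 genes, 11 were in dox alone (13.6%) and 40 in control alone (49.4%), and 7 of 30 shared ones were lower, with a median ratio of −0.28. Of the 56 regions of the same windows nearest to other genes, 13 were in dox alone and 14 in control alone, and 1 of 29 shared ones was lower, with a median of 0.05. Without the Tpm1 window, the first set held 51 regions, with 8 in dox alone, 27 in control alone (52.9%), 6 of 16 shared ones lower and 0 higher, and a median ratio of −0.60. The dox list then covered 19.6 kb and the control list 43.3 kb. Most of the lower regions (7 of 8) and of the control-alone regions (40 of 54) thus lay in or nearest to the 10 genes, and the 2 higher ones in that set were those of Tpm1.

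**Figure D5:**
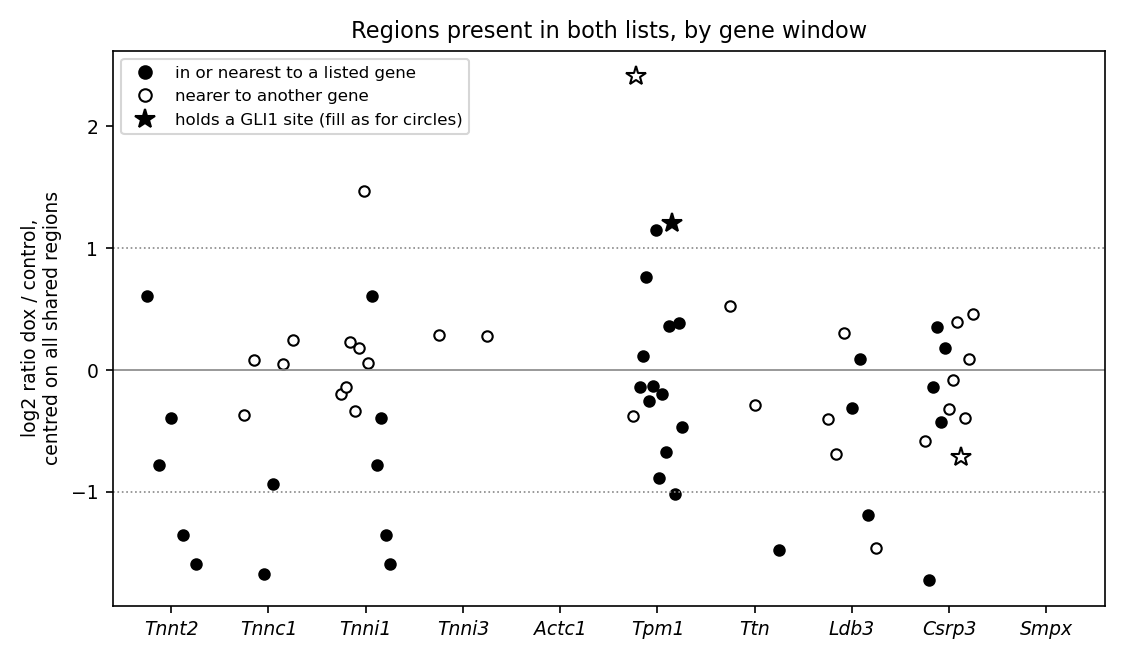
Centred log2 ratio (dox over control) of each shared region by window, in order along the chromosome within a window; filled marks are in or nearest to 1 of the 10 genes, open marks are nearer to another gene, stars hold a GLI1 site, and dotted lines mark the threshold of 1 in size. Regions in the overlap of the Tnnt2 and Tnni1 windows appear under each name, and Actc1 and Smpx have no shared region. Filled marks outside Tpm1 stay below 1 and reach −1.73 (Csrp3), and the stars stand at 2.41, 1.21 and −0.71.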

How the data were processed

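H3K27ac and tagged GLI1 (captured on streptavidin) were profiled by ChIP-seq. Build mm10 and the tools MACS2 2.1.1, Bowtie2 2.3.2 and SAMtools 1.5 are named in the submitters' processing notes without their roles. The authors pooled replicates and deposited narrowPeak lists holding, per summit, a fold enrichment (a ratio over local background), a −log10 p or q value and a score derived from it. Reads per library are unknown. Whole-number pileups returned 100% of the deposited values within 0.01 on the −log10 p scale, from uniform backgrounds of 3.63 reads in dox and 2.83 in control. The lowest −log10 q was 1.33 in dox and 1.31 in control.

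The 76437 dox and 67463 control intervals were merged into regions with Python 3.11.15, pandas 2.3.3, numpy 2.4.6 and scipy 1.17.1, and the scripts were tested on simulated data. Before centring, the median log2 ratio was −0.13. Gene starts came from the RefSeq table of GRCm38.p6, and genes with a start in a stretch of skipped peak numbers (1112) were left out of the background. None of the 10 windows held such a stretch. The table gives no exons, so exon and intron positions are not stated. The named regions of each window were those at the start, the strongest in each list, those with a GLI1 site, the highest and lowest ratios, and the strongest found in a single list. Some further regions of the same stretches were named beside them. The 10 genes, the lists and the alternatives were chosen with earlier results of these data known. No test was run, since each condition is 1 pooled list.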

Additional observations from a re-analysis of the deposited data

How the results depend on the processing

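Each H3K27ac list pools its 2 replicates, and leaving out a replicate was not run. No paired analysis was possible because the deposited lists hold no values per replicate. The reads per library and the share of low regions lost below the threshold limit what absence from a list can mean.

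The number of genes lower at the start or in control alone, 6 of 10, stayed between 5 and 7 under the 7 alternatives run for it. With a start window of 5000 bp it was 5. No share over all genes stands beside these alternatives. The control-alone share of 39.4% became 49.3% with 10 kb on each side and 49.4% with regions in or nearest to the 10 genes, and stayed between 40.9% and 42.9% under the other alternatives. The dox-alone share ranged from 13.6% to 20.1%. At a −log10 q of at least 10 the shares were 16.7% in dox alone and 41.7% in control alone, against 26.2% and 23.5% of all regions. With 50% of the shorter interval shared they were 20.1% and 40.9%, against 36.1% and 28.1% of all regions. With the dox pileups scaled by the ratio of recovered backgrounds and both lists held to 1 limit of −log10 p, the shares were 16.9% in dox alone and 42.6% in control alone, against 33.5% and 28.8% of all regions.

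The median ratio of −0.14 became −0.41 in the gene bodies alone and was below 0 under every alternative run. The 8 lower regions became 1 at a −log10 q of at least 10 and 4 with the mean over summits. For the first, 60 of the 137 regions were left. A lower region whose dox interval was below this limit counted as control alone there. The regions over the starts of Tnnt2 and Tnnc1 had a −log10 q of 5.30 and 4.66 in dox. In control these values were 28.6 and 42.5. The 4 higher regions became 1 with 10 kb on each side, 1 in the gene bodies alone, 2 at a −log10 q of at least 10, 1 with the mean over summits, 2 with regions in or nearest to the 10 genes and 1 without the Tpm1 window. The cause of the change with the mean over summits was not tested. The 3 GLI1 sites, 3 of them in dox intervals and 3 in control intervals, became 0, 0 and 0 with 10 kb on each side and likewise 0 in the gene bodies alone, since all lie farther out. Of 77 values of single genes under alternatives, 16 moved by more than their counting interval and 16 changed sign, 0 of them where the value as reported was past the threshold. Tnnc1 changed sign to values past it: its strongest region, 0.25 as reported, gave −1.57 in the gene body alone, and its start, 0.08, gave −1.67 with the region over or nearest to it.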

Other observations

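Beyond the 10 genes, 37 further sarcomere genes were read at their starts, 36 of which could be measured (8 of them at both outer gene ends, since the table gave no start). A region was found in both lists for 18, in dox alone for 1, in control alone for 4 and in neither for 13. Past the threshold, 3 were lower and 0 higher. Synpo2l, which encodes a Z-disc protein, had a fold enrichment of 5.28 in dox against 22.7 in control (centred log2 ratio −1.97), Tpm2, a further tropomyosin, had 7.04 in dox against 16.1 in control (−1.06), and Ankrd1, a stress-responsive ankyrin repeat protein, had 8.24 in dox against 18.9 in control (−1.06). Those in control alone were Pdlim3 (14.7), Tmod1 (5.39), Myl7 (3.35) and Cryab (2.62, read at both outer gene ends). The 1 in dox alone was Myl3 (8.66), a ventricular myosin light chain. The lower or control-alone count was thus 7 of 36, against 2.77% of all genes with an annotated start. That background holds no genes read at their outer ends, unlike the 36. In the windows of these genes, 25.5% of 431 regions were in dox alone and 31.1% in control alone, with a median ratio of −0.06, so their windows stood nearer to the genome than those of the 10 genes.

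Of the 6 cardiac progenitor genes with a region in both lists, 2 were lower, against 1.71% of all such genes with an annotated start. Hand2 had 10.8 in dox against 24.5 in control (−1.05). Myocd, a cofactor of serum response factor, had 4.32 in dox against 14.3 in control (−1.60). Isl1 had 21.0 in dox against 20.2 in control (0.19). Gata6 (−0.25), Tbx20 (−0.32) and Mef2c (−0.21) also stayed within the threshold. Of 3 smooth muscle genes measured, Cnn1 was lower (−1.02), and Tagln (−0.93) and Acta2 (−0.29) stayed within the threshold. Among 4 endothelial genes, Cdh5 (3.13) and Kdr (2.82) were in dox alone and Pecam1 and Tek in both. Among 4 endoderm genes Foxa2 was in dox alone with 34.0 and 3 were in neither list. Of 3 neural genes measured, Sox2 was in both, with 7.99 in dox and 7.70 in control, and 2 were in neither. Gata6, Myocd, Tagln, Pecam1, Cdh5 and the endoderm gene Sox17 were read at both outer gene ends, since the table gave no start. The part of these marker genes in the values at the 10 genes was not tested.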
